A study of Mus musculus with 10 samples.

Results

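MYC, MAX and the MXD proteins form a network of basic helix-loop-helix leucine zipper transcription factors, and its genes were examined here by their promoter H3K4me3 in naive extra-embryonic endoderm (nEnd), a culture that resembles the early primitive endoderm. The 10 members were taken by name and comprise the MYC genes Myc, Mycn and Mycl, the dimerisation partners Max and Mlx, and the repressor genes Mnt, Mxi1, Mxd1, Mxd3 and Mxd4. They are 10 of 21938 protein-coding genes in the GENCODE M21 annotation of GRCm38. For each gene, peaks were kept that overlapped the stretch from 1000 bp before to 100 bp after any annotated transcription start site, and the peak with the highest total signal was called its promoter peak.

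CUT&Tag, in which an antibody-tethered transposase releases the DNA beside a histone mark, was performed with an antibody to H3K4me3 on cells derived from an OCT4-mCherry mouse embryonic stem cell line. Cells had been driven to primitive endoderm, expanded as nEnd in RACL medium on mouse embryonic fibroblasts and given no further treatment, and were then separated by FACS on the OCT4-mCherry reporter and surface PDGFRA into Oct4+ nEnd (4 libraries), double-positive DP nEnd (3 libraries) and Pdgfra+ nEnd (3 libraries). All groups thus share the line, the medium and the antibody, and the reporter and PDGFRA that define them are also the sort markers. The study calls its replicates biological, without saying whether these libraries came from separate cultures or sorts, and p-values measure the spread between these libraries.

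MYC proteins bind DNA only as dimers with MAX, and these dimers recruit histone acetyltransferases and raise the transcription of genes for ribosome assembly, translation and metabolism. MXD proteins, MXI1 and MNT also bind MAX, occupy the same E-box letters CACGTG and recruit SIN3 and NCOR corepressors, so the levels of the competing partners set the output of the network. In the early embryo MYC levels are known for cell competition in the epiblast, and Mycn can take over from Myc in pluripotent cells.

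The libraries differed in depth as far as the peak lists show it. They held 3477 to 10545 peaks, and the median of the highest coverage within a peak was 22 to 59 in Oct4+ nEnd, 107 to 144 in DP nEnd and 67 to 143 in Pdgfra+ nEnd. Coverage was not scaled between libraries and read depth is unknown, so each peak was placed by its percentile among the peaks of its own library (the share of peaks at or below it). Oct4+ nEnd replicate 3 had the fewest peaks and gave no peak end of its own to the study's Oct4+ consensus list (0 of 7860), and it stayed out of the main tests. Pdgfra+ nEnd replicate 2 gave few of its own to the Pdgfra+ list (54 of 7781) and was kept. Its median peak width, 2204.5 bp, was the smallest of all libraries. Epiblast markers had promoter peaks for 6 of 6 genes in every Oct4+ library, 5 to 6 in DP libraries and 0 to 2 in Pdgfra+ libraries, and primitive endoderm markers for 8 of 8 in every DP and Pdgfra+ library and 0 to 5 in Oct4+ libraries. Of 10 fibroblast markers, at most 1 had a peak in any library, and that gene was Twist1. Of 6 trophectoderm markers, 1 (Tfap2c) had a peak in each Oct4+ library and in no other. In each DP and Pdgfra+ library 2 to 3 had one, Gata3 and Krt18 in all of them.

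All 10 members had a promoter peak in all 3 consensus lists, against 34.9% of protein-coding genes. In single libraries the peaks were present for 10 members in each DP library, for 10, 9 and 10 in Pdgfra+ replicates 1 to 3, and for 10, 10, 5 and 8 in Oct4+ replicates 1 to 4. Myc, Mycn, Max and Mnt had a peak in all 10 libraries, as had 16.5% of genes. Mxd1 and Mxd4 were without one in Oct4+ replicates 3 and 4, Mycl, Mxi1 and Mlx in Oct4+ replicate 3, and Mxd3 in Pdgfra+ replicate 2. Thus 9 members had a peak in every DP and Pdgfra+ library, as had 32.7% of genes, and the pattern of Mxd1 and Mxd4, absent from Oct4+ replicates 3 and 4 alone, was that of 8.38% of genes. No member was present in every library of one population and in none of another, a pattern rare among all genes. It was shown by 0.356% of genes for Oct4+ over Pdgfra+ nEnd and 1.42% for the reverse, by 0.201% for Oct4+ over DP nEnd and 1.93% for the reverse, and by 0.109% for DP over Pdgfra+ nEnd and 0.00456% for the reverse. For Mxd1 and Mxd4, 2 of 4 Oct4+ libraries against 3 of 3 DP or Pdgfra+ libraries gave p = 0.429 (two-sided Fisher's exact test, where the smallest p this design allows is 0.0286), and the missing peaks fell in the libraries with the fewest peaks, whose part in this was not tested.

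**Figure D1:**
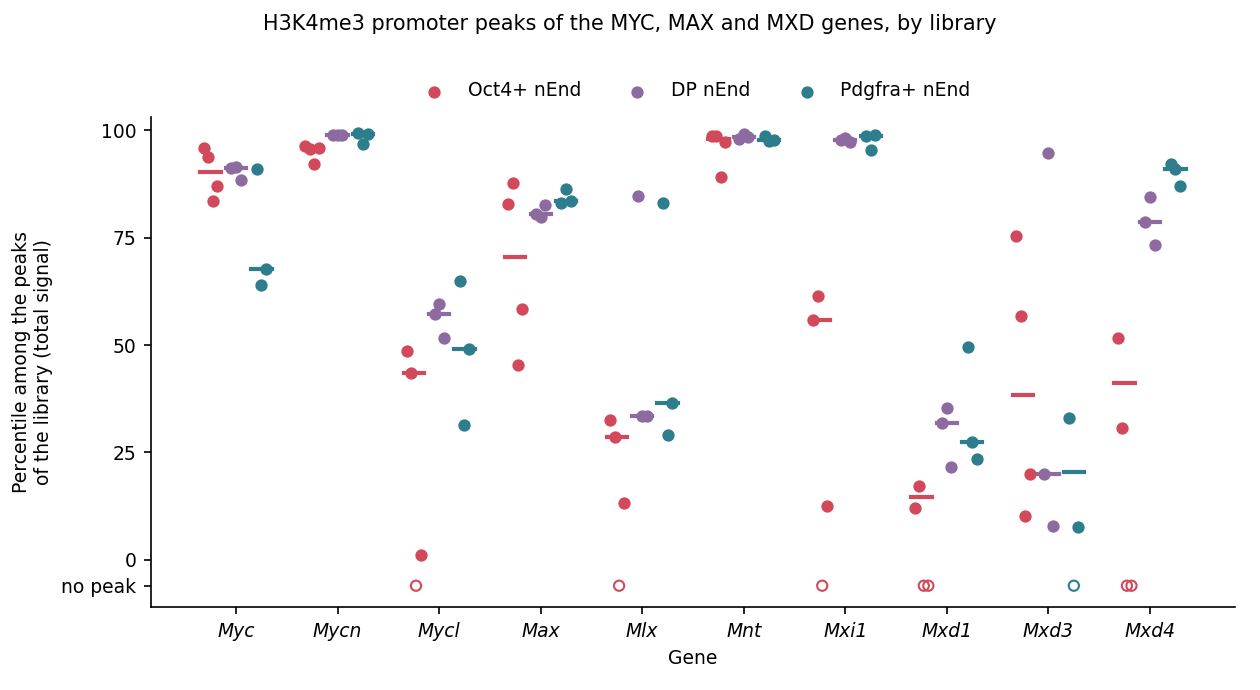
Percentile of each member's promoter peak among the peaks of its library by total signal (vertical axis), for 10 genes (horizontal axis) in 4 Oct4+, 3 DP and 3 Pdgfra+ libraries. Each filled point is 1 library, bars are medians of the libraries with a peak and open points at the bottom are libraries without one; Mycn and Mnt sit near the top throughout, while Mxi1 and Mxd4 are lower in the Oct4+ libraries.

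For the tests, genes with a promoter peak in each of the 9 libraries of the main fit were ranked within each library. There were 4771 such genes (21.7% of the annotation) and 7 members were among them, with Mxd1, Mxd3 and Mxd4 left out. Normal scores of the ranks were compared between populations with limma, and differences are given as mean percentiles among these 4771 promoters ("tested percentile", ± SD, n = 3 libraries each). A member that passed this presence filter need not stand for those that did not. By total signal, 4 of 7 members passed an adjusted p of 0.05 between Oct4+ and Pdgfra+ nEnd, where 40.2% of all genes did, and 3 of 7 passed between Oct4+ and DP nEnd, where 28.5% of all genes did. None of the 7 passed in limma between DP and Pdgfra+ nEnd, where 0.545% of all genes did, and 1 of them (Myc) had an unadjusted p under 0.05, as had 8.85% of all genes. By highest coverage 1 of 7 members passed between Oct4+ and Pdgfra+ nEnd (Myc; 12.3% of all genes) and 1 between Oct4+ and DP nEnd (Mycl; 8.05%), and by width 1 between Oct4+ and Pdgfra+ nEnd (Mxi1; 5.45%). In the other pairs limma called none by these measures, where 0.0838% of all genes passed by highest coverage between DP and Pdgfra+ nEnd and 0.272% and 0.147% by width between DP and Oct4+ or Pdgfra+ nEnd; 1 (Myc), 1 (Mxi1) and 0 members had an unadjusted p under 0.05 there, as had 3.54%, 11.9% and 9.73% of all genes. The median difference of the 7 members by total signal, Oct4+ minus Pdgfra+ nEnd, was -5.12 percentile points, beside -0.748 for all genes tested. The network was not tested as a set against all genes, and the members are described singly.

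**Figure D2:**
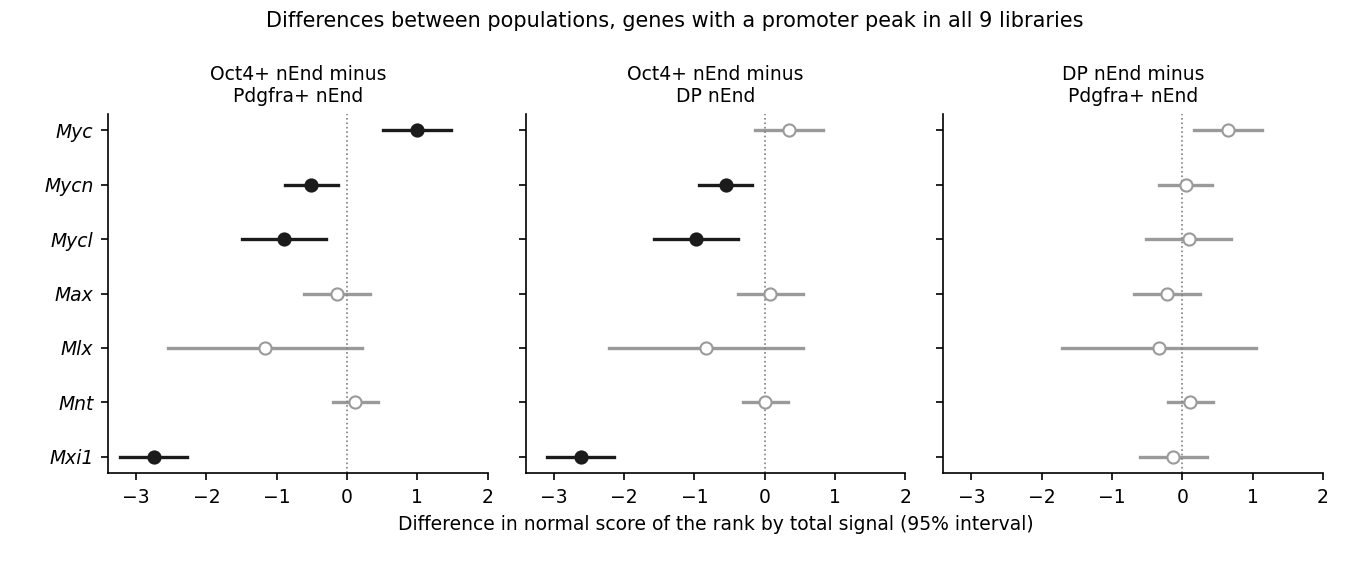
Difference in the normal score of the promoter's rank by total signal (horizontal axis) for the 7 members with a peak in all 9 libraries, in 3 pairs of populations with 3 libraries each. Points are limma estimates with 95% intervals, and filled black points have an adjusted p under 0.05; Myc lies above 0 and Mxi1 furthest below 0 between Oct4+ and Pdgfra+ nEnd, and no member is filled between DP and Pdgfra+ nEnd.

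Myc (chr15:61985391-61990374, plus strand), the best known MYC gene and a driver of growth and cell cycle entry, carried a broad peak over all 6 of its annotated start sites in every library. Its percentile by total signal was 95.9, 93.8, 83.5 and 86.9 in Oct4+ replicates 1 to 4, 91.2, 91.5 and 88.3 in DP replicates 1 to 3, and 90.9, 64.0 and 67.8 in Pdgfra+ replicates 1 to 3. Pdgfra+ replicates 2 and 3 stood below all other libraries, while Pdgfra+ replicate 1 lay among the DP libraries. Ranked among the tested promoters only, the populations did not overlap: Oct4+ libraries spanned 84.2 to 90.5, DP libraries 76.8 to 80.4 and Pdgfra+ libraries 43.7 to 75.1. The share of all tested genes without overlap was not counted, for Myc or for the members below.

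The mean tested percentile of Myc was 87.4 ± 3.13 in Oct4+ and 55.6 ± 17.02 in Pdgfra+ nEnd, a difference of 31.7 points (limma, adjusted p = 0.00515). The call held without any single library, with differences from 25.7 to 41.5 points. DP nEnd fell between them at 78.9 ± 1.83, and neither its difference from Oct4+ (8.49 points, adjusted p = 0.250) nor that from Pdgfra+ nEnd (23.2 points, adjusted p = 0.434) passed. Without Pdgfra+ replicate 1 the DP to Pdgfra+ difference was 33.0 points and just passed (adjusted p = 0.0497).

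The height of the Myc peak differed between Oct4+ and Pdgfra+ nEnd as its area did, and its width did not pass. By highest coverage Myc was at tested percentile 41.2 ± 19.9 in Oct4+ and 3.32 ± 3.16 in Pdgfra+ nEnd (limma, adjusted p = 0.00248). DP nEnd was at 13.4 ± 1.46, in points nearer to Pdgfra+ than to Oct4+ nEnd. It passed against neither (limma, adjusted p = 0.132 against Oct4+ and 0.996 against Pdgfra+ nEnd). Among all peaks of the library the same peak stood at 47.9, 3.36 and 12.4 in Pdgfra+ replicates 1 to 3. By width it was at percentile 81.2 or above in every library, with 4913 to 7350 bp. The difference in width between Oct4+ and Pdgfra+ nEnd was -5.01 points (adjusted p = 0.558). In Pdgfra+ replicates 2 and 3 the Myc domain was thus wide and low.

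Mycn (chr12:12936093-12941914, minus strand), the paralogue most tied to embryonic progenitors, had a promoter peak near the top of every library. By total signal it stood at percentile 96.3, 95.7, 92.1 and 95.8 in Oct4+ replicates 1 to 4, 98.95, 98.97 and 98.9 in the DP libraries, and 99.3, 96.8 and 99.1 in the Pdgfra+ libraries. All Oct4+ libraries were below all others. In DP replicate 3 it was the peak of rank 85 among 7575, and in Pdgfra+ replicate 1 of rank 72 among 10545.

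Mycn differed in the opposite sense to Myc, by a few points. Its mean tested percentile was 92.4 ± 1.98 in Oct4+, 97.7 ± 0.190 in DP and 97.1 ± 1.90 in Pdgfra+ nEnd. The difference of Oct4+ nEnd was -4.76 points to Pdgfra+ nEnd (limma, adjusted p = 0.0361) and -5.33 points to DP nEnd (adjusted p = 0.0337). The call against Pdgfra+ nEnd was lost without DP replicate 1, 2 or 3, Oct4+ replicate 1 or 2, or Pdgfra+ replicate 1 or 3, with adjusted p up to 0.114, and that against DP nEnd without any DP replicate or Oct4+ replicate 1 or 2, with adjusted p up to 0.103.

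The bases before the RefSeq start of Mycn are shown because they hold the only E2F letters found among the 9 members with a RefSeq promoter entry (all but Myc), at chr12:12941977-12942036 on the minus strand (GRCm38.p6), with matches to TTTNGCGC on either strand in capitals.
Mycn: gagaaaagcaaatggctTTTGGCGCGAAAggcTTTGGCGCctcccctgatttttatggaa
E2F factors drive genes of cell cycle entry. The stretch holds 3 matches, of which the first 2 overlap, and 1.13% of 32851 RefSeq promoters hold such a match in the 250 bases before the start.

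Mycl (chr4:122995652-123002485, plus strand), the least studied of the MYC genes, had a middling peak. By total signal it was at percentile 48.6, 43.4 and 1.06 in Oct4+ replicates 1, 2 and 4, 57.3, 59.5 and 51.7 in the DP libraries, and 64.9, 31.3 and 49.2 in the Pdgfra+ libraries. Oct4+ replicate 4, where it was of rank 4836 among 4887 peaks, stood far from the rest. The tested percentile was 5.62 ± 4.34 in Oct4+ nEnd against 19.3 ± 2.96 in Pdgfra+ nEnd (-13.7 points, limma, adjusted p = 0.0234) and 21.7 ± 1.82 in DP nEnd (-16.1 points, adjusted p = 0.0210). Without Oct4+ replicate 4 these became -2.67 points (adjusted p = 0.723) and -8.90 points (adjusted p = 0.251). The first call was also lost without Pdgfra+ replicate 1 or 3 and the second without any DP replicate, with adjusted p from 0.0573 to 0.0659. By highest coverage Mycl was at 2.42 ± 1.89 in Oct4+ against 19.0 ± 9.94 in DP nEnd (-16.5 points, adjusted p = 0.0455), a call lost without any DP replicate, Oct4+ replicate 2 or 4, or Pdgfra+ replicate 1.

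Max (chr12:76937269-76962201, minus strand), the obligate partner of the network, had a peak that was tall in every library and of varying width. By highest coverage it was at percentile 78.7, 96.8, 78.7 and 79.3 in Oct4+ replicates 1 to 4, 86.9, 89.7 and 94.9 in the DP libraries, and 88.7, 92.8 and 92.9 in the Pdgfra+ libraries. By width it was at percentile 3.39 to 87.1, and between 32.5 and 58.8 in every DP and Pdgfra+ library. By total signal it was at 79.9 to 86.2 in the DP and Pdgfra+ libraries and at 82.7, 87.8, 45.3 and 58.5 in Oct4+ replicates 1 to 4. None of the 3 measures passed between any pair of populations, and by total signal the difference of Oct4+ from Pdgfra+ nEnd was -5.12 points (limma, 95% interval -0.61 to 0.32 in normal scores, adjusted p = 0.617).

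Mlx (chr11:101087277-101092207, plus strand), a MAX-like protein that pairs with glucose-sensing MONDO factors and with some MXD proteins, had a peak in the lower ranks of most libraries. Its percentile by total signal was 32.6, 28.6 and 13.4 in Oct4+ replicates 1, 2 and 4, 84.6, 33.4 and 33.5 in the DP libraries, and 83.01, 29.1 and 36.4 in the Pdgfra+ libraries. In DP replicate 1 and Pdgfra+ replicate 1 the peak, 7646 and 8729 bp wide, also covered the promoter of the neighbouring Coasy, a coenzyme A synthesis gene. Its highest point lay at -4438 and -4437 bp from the first Mlx start there, so the value of those libraries cannot be assigned to Mlx. No pair passed by total signal (limma, adjusted p from 0.156 to 0.890), and without DP replicate 1 the Oct4+ to Pdgfra+ difference of -22.6 points just passed (adjusted p = 0.0497). That fit still held Pdgfra+ replicate 1, whose value cannot be assigned to Mlx, so the call cannot be read as one for Mlx. Without 1 library at a time the difference ran from -31.9 to -7.63 points.

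Mnt (chr11:74830920-74845725, plus strand), the broadly expressed repressor that counters MYC in most cells, had a high peak in every library. Its percentile by total signal was 98.7, 98.6, 89.2 and 97.3 in Oct4+ replicates 1 to 4, 97.9, 99.1 and 98.4 in the DP libraries, and 98.5, 97.4 and 97.7 in the Pdgfra+ libraries. Apart from Oct4+ replicate 3, all libraries lay between 97.3 and 99.1 and the populations overlapped. The mean tested percentiles were 96.8 ± 0.416 in Oct4+, 96.6 ± 1.35 in DP and 95.9 ± 0.171 in Pdgfra+ nEnd, and the difference between Oct4+ and Pdgfra+ nEnd was 0.922 points (limma, 95% interval -0.20 to 0.44 in normal scores, adjusted p = 0.541). The peak was 13616, 10462, 5451 and 10963 bp wide in Oct4+ replicates 1 to 4, 7801, 12424 and 10788 bp in the DP libraries and 7122, 4525 and 6870 bp in the Pdgfra+ libraries. It covered 1 of 3 annotated start sites in every Pdgfra+ library and all 3 in Oct4+ replicates 1, 2 and 4 and DP replicates 2 and 3, and in Pdgfra+ replicates 1 and 3 a second peak lay further downstream, over 2 start sites and 1 start site. Its width percentile did not pass between Oct4+ and Pdgfra+ nEnd (3.19 points, adjusted p = 0.713).

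**Figure D3:**
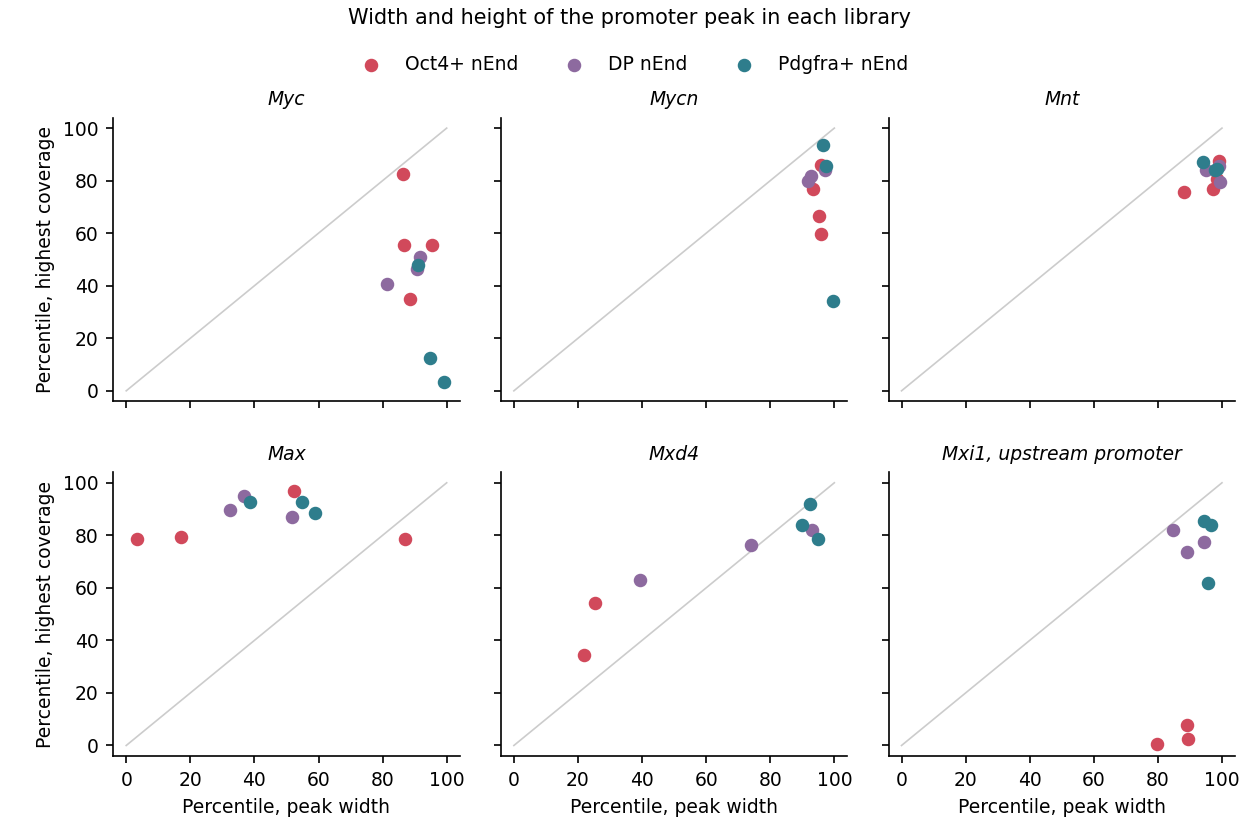
Percentile of the promoter peak by width (horizontal axis) against its percentile by highest coverage (vertical axis) for Myc, Mycn, Mnt, Max, Mxd4 and the upstream Mxi1 promoter, with 1 point per library that had the peak and a grey line where both are equal. Max lies above the line in all libraries but Oct4+ replicate 1, Myc lies below it in every library with Pdgfra+ replicates 2 and 3 lowest, and the upstream Mxi1 peak of the Oct4+ libraries is wide but among the lowest peaks.

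Mxi1 (chr19:53310518-53375810, plus strand) encodes a MAX-binding repressor and antagonist of MYC, and held the largest difference of the 7 tested members. Of its 9 annotated start sites, 2 fall in an upstream promoter at the first start and 6 in a downstream promoter about 19 kb further on, and the last lay in no peak of any library. Every library but Oct4+ replicate 3 had a separate peak at both promoters. By total signal the upstream peak was at percentile 46.2, 26.4 and 12.4 in Oct4+ replicates 1, 2 and 4, 97.8, 98.2 and 97.2 in the DP libraries, and 98.7, 95.5 and 98.9 in the Pdgfra+ libraries. The downstream peak was at 55.8, 61.4 and 8.68 in the same Oct4+ libraries, 37.2, 36.3 and 41.7 in the DP libraries, and 55.3, 45.5 and 49.3 in the Pdgfra+ libraries. The upstream peak thus separated Oct4+ nEnd from both PDGFRA-positive populations with no overlap, and the downstream peak overlapped. How many of all promoters separate in this way was not counted.

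With each promoter fitted separately, an alternative chosen after the data had been seen, the upstream promoter was at tested percentile 5.69 ± 4.10 in Oct4+, 94.0 ± 0.797 in DP and 95.1 ± 2.72 in Pdgfra+ nEnd. The difference of Oct4+ nEnd was -89.4 points to Pdgfra+ nEnd (limma, adjusted p = 1.42e-05, where 40.4% of 5389 promoters passed) and -88.3 points to DP nEnd (adjusted p = 7.41e-05, where 28.5% passed). Between DP and Pdgfra+ nEnd it was -1.10 points and did not pass (adjusted p = 0.872, where 0.649% passed). The downstream promoter was at 16.1 ± 10.5, 6.47 ± 4.07 and 19.0 ± 8.60 in the same order and passed in no pair (adjusted p from 0.183 to 0.683). Taking the stronger peak per gene, as for the other members, Mxi1 was at 17.3 ± 9.29 in Oct4+ against 95.7 ± 2.68 in Pdgfra+ nEnd (-78.3 points, adjusted p = 2.07e-05), but that value sets the downstream peak of Oct4+ replicates 1 and 2 beside the upstream peak of the other libraries.

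The upstream peak differed in height, and its width did not pass. It covered 7126, 5672 and 5764 bp in Oct4+ replicates 1, 2 and 4 and 4063 to 8089 bp in the DP and Pdgfra+ libraries, and its tested percentile by width was 81.1 ± 1.83 in Oct4+ against 91.4 ± 1.58 in Pdgfra+ nEnd (-10.2 points, limma, adjusted p = 0.409, where 4.99% of promoters passed). The width called for Mxi1 above with the stronger peak per gene (-62.5 points, adjusted p = 0.0319) again set different promoters side by side, and was lost without Oct4+ replicate 1 or 2 or any Pdgfra+ replicate. By highest coverage it was at 0.102 ± 0.0608 in Oct4+, 55.4 ± 3.94 in DP and 61.1 ± 10.3 in Pdgfra+ nEnd (adjusted p = 5.86e-07 against Pdgfra+, where 13% of promoters passed, and 1.39e-06 against DP, where 8.89% passed). In Oct4+ nEnd the upstream promoter carried a domain of 5672 to 7126 bp whose highest coverage was 29, 19 and 11 in replicates 1, 2 and 4.

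A ratio of the 2 peaks within a library needs no scaling between libraries. It was not among the planned comparisons and reuses the peak values above, so it is no separate support. Total signal of the upstream over the downstream peak was 0.864, 0.542 and 1.05 in Oct4+ replicates 1, 2 and 4, 3.78, 4.57 and 3.60 in the DP libraries, and 3.88, 2.35 and 4.20 in the Pdgfra+ libraries. The Oct4+ ratios were below all others, and the geometric means were 0.790, 3.96 and 3.37. The differences on the log2 scale were -2.33 to DP and -2.09 to Pdgfra+ nEnd (two-sided exact permutation test, p = 0.1 each, the smallest value that 3 against 3 libraries can give). DP and Pdgfra+ ratios overlapped (two-sided exact permutation test, p = 0.6).

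**Figure D4:**
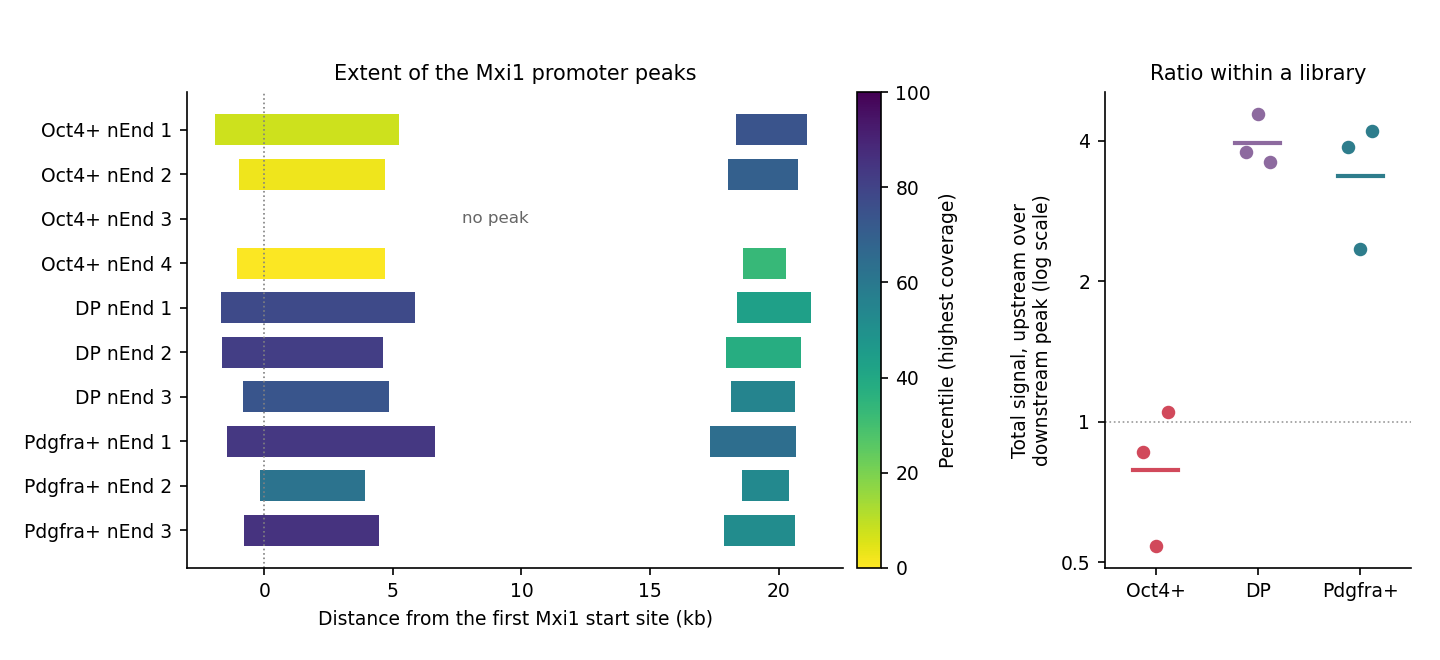
Left, extent of the Mxi1 promoter peaks in each of 10 libraries as distance in kb from the first start site, coloured by their percentile by highest coverage in the library; right, total signal of the upstream over the downstream peak (log scale), with 1 point per library and bars for geometric means of 3 libraries. The upstream peak has a similar extent in Oct4+ nEnd but a low percentile, and the Oct4+ ratios (0.542 to 1.05) lie below those of DP and Pdgfra+ nEnd (2.35 to 4.57).

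The bases before the RefSeq starts of both Mxi1 promoters are shown, since Oct4+ nEnd did not overlap the other populations at the former and did at the latter. They lie at chr19:53310256-53310505 and chr19:53329163-53329412 on the plus strand (GRCm38.p6), outside annotated exons, and no searched letters were found in either.
Mxi1 upstream: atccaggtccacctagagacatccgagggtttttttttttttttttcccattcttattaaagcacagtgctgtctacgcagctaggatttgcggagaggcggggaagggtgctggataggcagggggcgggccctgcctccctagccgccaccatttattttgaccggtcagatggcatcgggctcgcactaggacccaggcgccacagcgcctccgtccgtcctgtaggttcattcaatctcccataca
Mxi1 downstream: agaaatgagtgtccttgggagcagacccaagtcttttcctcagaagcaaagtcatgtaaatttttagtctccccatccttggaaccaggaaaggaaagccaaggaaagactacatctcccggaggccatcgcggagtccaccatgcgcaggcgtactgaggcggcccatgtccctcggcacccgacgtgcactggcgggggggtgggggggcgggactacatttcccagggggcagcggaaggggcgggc
Both held 13 CG pairs in 250 bases, and the ratio of observed to expected CG pairs was 0.683 upstream and 0.584 downstream. A further RefSeq entry of the downstream promoter, not shown, held 42 CG pairs with a ratio of 1.15, beside a median of 0.374 over all 32851 RefSeq promoters.

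Mxd4 (chr5:34173883-34187720, minus strand), an MXD repressor of quiescent and differentiating cells, followed a similar order. By total signal its peak was at percentile 51.6 and 30.6 in Oct4+ replicates 1 and 2, absent from Oct4+ replicates 3 and 4, at 78.7, 84.5 and 73.4 in the DP libraries and at 92.2, 91.0 and 87.1 in the Pdgfra+ libraries. Among libraries with the peak, of which Oct4+ nEnd had 2, the 3 populations did not overlap. The share of all genes that separate in this way was not counted. Since Oct4+ replicate 4 lacked the peak, it was tested only in the fit without that library, over 6652 genes, where Oct4+ nEnd has 2 libraries. There its tested percentile was 23.3 ± 9.71 in Oct4+, 67.6 ± 5.43 in DP and 84.7 ± 3.86 in Pdgfra+ nEnd. The difference of Oct4+ nEnd was -61.4 points to Pdgfra+ nEnd (limma, adjusted p = 0.000275, 34.4% of genes passed) and -44.3 points to DP nEnd (adjusted p = 0.00284, 21.5% passed). The -17.1 points of DP against Pdgfra+ nEnd did not pass (adjusted p = 0.298, 0.105% passed). By highest coverage the difference from Pdgfra+ nEnd passed (-55.0 points, adjusted p = 0.00490, 10.3% of genes) and that from DP nEnd did not (-37.2 points, adjusted p = 0.0711, 6.13% of genes). All these values rest on Oct4+ replicates 1 and 2, the only Oct4+ libraries with the peak.

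Mxd1 (chr6:86647042-86669161, minus strand), the MXD gene first tied to terminal differentiation, had a weak peak throughout. Its percentile by total signal was 12.04 and 17.3 in Oct4+ replicates 1 and 2, 31.9, 35.4 and 21.7 in the DP libraries, and 49.5, 27.4 and 23.4 in the Pdgfra+ libraries. Both Oct4+ values were below all others. In the fit without Oct4+ replicate 4 the differences did not pass (-9.33 points to Pdgfra+ nEnd, limma, adjusted p = 0.0583, and -4.84 points to DP nEnd, adjusted p = 0.207).

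Mxd3 (chr13:55325168-55329823, minus strand), the MXD gene of proliferating cells, varied more between replicates than between populations. Its percentile by total signal was 75.3, 56.8, 10.2 and 20.1 in Oct4+ replicates 1 to 4, 19.9, 94.7 and 7.83 in the DP libraries, and 33.1 and 7.58 in Pdgfra+ replicates 1 and 3. The high value of DP replicate 2 came from a peak of 12923 bp that also covered the promoters of Prelid1 and Rab24 and had its highest point 7786 bp from the Mxd3 start, so it cannot be assigned to Mxd3. In the fit without Pdgfra+ replicate 2 no pair passed by total signal (limma, adjusted p from 0.201 to 1).

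E-box letters stood before the starts of 3 of the 9 members with a RefSeq promoter entry, and are shown in capitals because MYC, MXD and MNT dimers with MAX bind them. The stretches lie at chr5:34187897-34187956 on the minus strand for Mxd4, and on the plus strand at chr11:74830774-74830833 for Mnt and chr11:101087217-101087276 for Mlx (all GRCm38.p6).
Mxd4: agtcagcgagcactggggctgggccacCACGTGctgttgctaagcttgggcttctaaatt
Mnt: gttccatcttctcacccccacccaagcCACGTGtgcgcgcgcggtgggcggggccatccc
Mlx: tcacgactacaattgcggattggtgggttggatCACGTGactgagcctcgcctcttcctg
CACGTG is its own reverse complement, and 6.02% of RefSeq promoters hold it in the 250 bases before the start. The STAT letters TTCNNNGAA (7.02% of promoters) and the GATA letters AGATAA on either strand (9.99%) were found in none of the 9 members' entries. The 3 genes with E-box letters did not share a pattern of H3K4me3, with Mnt near the top in every population, Mlx low in most libraries and Mxd4 lowest in Oct4+ nEnd. The members' entries were rich in CG pairs, with ratios of observed to expected pairs from 0.554 for Mycl to 1.15 for the further downstream entry of Mxi1.

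Members were also compared with other genes by the correlation of their normal scores over the 9 libraries, as a description with no test, since libraries of 1 population share their state and depth. Nearest to Mxi1 were Tfg (Pearson r = 0.997), Tax1bp3 and Emc6 (both 0.989), among 149 genes at 0.95 or above; these rest on the stronger peak per gene and so describe neither Mxi1 promoter alone. Nearest to Myc were Pym1 (0.964), Orc3 and Rars2 (both 0.955), among 11 genes at 0.95 or above. Nearest to Mycl were Ptprk, Asb3 and Erlec1 (all 0.988), among 42 such genes. For Mycn they were Zfp609 (0.985), Tcf7l2 (0.985) and Hsf2 (0.982), among 10. The values of r were identical for Tax1bp3 and Emc6, for Orc3 and Rars2, and for Asb3 and Erlec1. Whether these genes share a peak with each other was not examined, so they may not be separate cases.

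Genes that work with the network were described from lists, by how many passed among those with a peak in all 9 libraries. A listed gene that lacked a peak in even 1 of these libraries could be counted neither as higher nor as lower. Of 35 MYC target genes, 28 were tested, and 15 were higher in Oct4+ than in Pdgfra+ nEnd and 0 lower, where 19.3% of all genes were higher and 20.9% lower (limma; 40.2% in both directions). The median difference of the 28 was 15.2 points, beside -0.748 for all genes. Against DP nEnd 15 were again higher and 0 lower (14.1% and 14.4% of all genes), with a median of 14.4 points, and none passed between DP and Pdgfra+ nEnd in limma (0.545% of all genes did). Both comparisons share the Oct4+ libraries. Without 1 library at a time, an alternative added for these lists after the data had been seen, the higher targets numbered 12 to 16 and 8 to 17, the 8 arose without DP replicate 2 or 3, and the lower targets numbered 0 to 1 in both comparisons. The lower target was Ccnd2, cyclin D2, named after its values were seen. It had a peak in 2 of 4 Oct4+ libraries, at 30.2 and 41.1, so it was tested only without Oct4+ replicate 4, and lay at 79.9 to 90.3 in DP and 68.0 to 92.7 in Pdgfra+ nEnd (limma, adjusted p = 0.00154 and 0.000876). Of the higher targets, Hspd1 and Hspe1, which encode a mitochondrial chaperonin and its partner, shared 1 peak in all 10 libraries, and with that peak counted once, also an added alternative, 14 of 27 were higher in either comparison.

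The targets named for the largest differences were Nop58, Npm1, Tfrc and Nop56. Nop58, a box C/D ribonucleoprotein subunit, was at tested percentile 79.7 ± 4.14 in Oct4+ against 21.6 ± 22.48 in Pdgfra+ nEnd (adjusted p = 0.00857). Npm1, nucleophosmin, was at 69.8 ± 7.0 against 22.7 ± 9.45 (adjusted p = 0.000614) and 33.5 ± 4.41 in DP nEnd (adjusted p = 0.00494). Tfrc, the transferrin receptor, was at 48.4 ± 3.92 against 5.01 ± 6.84 in Pdgfra+ and 1.61 ± 1.01 in DP nEnd (adjusted p = 0.000973 and 0.000800). Nop56, the partner of Nop58, was at 70.9 ± 11.0 in Oct4+ against 34.7 ± 3.54 in DP nEnd (adjusted p = 0.00492). Cdkn2b, a cell cycle inhibitor that MYC represses through MIZ1, had a peak in 0 of 4 Oct4+ libraries and in 3 of 3 DP and 3 of 3 Pdgfra+ libraries, at percentiles from 2.56 to 45.8. Over all genes, 1.93% had a peak in every DP and no Oct4+ library, and 1.42% in every Pdgfra+ and no Oct4+ library.

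Coactivators of MYC passed for 2 of 9 tested genes, both higher in Oct4+ nEnd against either population, where 19.3% (against Pdgfra+) and 14.1% (against DP) of all genes were higher. Wdr5, a subunit of H3K4 methyltransferases that contacts MYC, was at tested percentile 91.1 ± 2.18 in Oct4+, 63.7 ± 7.82 in DP and 59.7 ± 2.49 in Pdgfra+ nEnd (limma, adjusted p = 0.00147 and 0.000506). Ruvbl1, an ATPase of the TIP60 complex, was at 40.5 ± 11.7, 15.6 ± 1.72 and 17.3 ± 4.61 in the same order. Without 1 library at a time the higher coactivator genes numbered 2 to 3 against Pdgfra+ and 2 against DP nEnd. Without Oct4+ replicate 4, genes marked in the other 8 libraries entered the test, and 2 coactivator genes, named after their values were seen, were then lower in Oct4+ nEnd. Trrap, a scaffold of histone acetyltransferase complexes, had a peak in 2 of 4 Oct4+ libraries, at 37.9 and 45.6, beside 68.4 to 72.5 in DP and 58.9 to 78.2 in Pdgfra+ nEnd (limma, adjusted p = 0.00891 and 0.00658). Kat5, the acetyltransferase of the TIP60 complex, was lower than in Pdgfra+ nEnd by the same test (adjusted p = 0.0306). Kat2a, also outside the main fit, went the other way. It had a peak in 3 of 4 Oct4+ libraries, at 44.2 to 76.3, beside 7.65 to 22.4 in DP nEnd. In Pdgfra+ nEnd 1 of 3 libraries had it, at 18.8.

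Among SIN3 and NCOR corepressor genes, 2 of 9 tested were higher and 1 lower in Oct4+ nEnd against either population, beside 19.3% higher and 20.9% lower of all genes against Pdgfra+ nEnd and 14.1% and 14.4% against DP nEnd. Sap30, a SIN3 subunit, was at 87.5 ± 1.49 in Oct4+, 66.2 ± 7.95 in DP and 49.0 ± 6.26 in Pdgfra+ nEnd (limma, adjusted p = 0.00881 and 0.000458). Ncor1, the nuclear receptor corepressor, was at 95.5 ± 0.753, 82.9 ± 0.641 and 80.8 ± 3.33. Sin3a, the scaffold that MXD proteins bind, was lower by less than 1 point, at 99.1 ± 0.503 in Oct4+ against 99.9 ± 0.0605 in Pdgfra+ nEnd (adjusted p = 0.00378). Its call against DP nEnd (adjusted p = 0.0137) was lost without DP replicate 1 or Oct4+ replicate 4.

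In the PRC1.6 list, a Polycomb complex that MGA and MAX join, 3 of 7 tested genes were higher in Oct4+ than in Pdgfra+ nEnd (19.3% of all genes) and 2 of 7 than in DP nEnd (14.1%), with 0 lower in both. These were Tfdp1, the E2F dimer partner (34.1 ± 6.40 against 13.4 ± 3.97 in Pdgfra+ nEnd, adjusted p = 0.00614), Rybp (93.5 ± 2.04 against 77.9 ± 3.97, adjusted p = 0.00381) and, called against Pdgfra+ nEnd alone, the histone methyltransferase gene Ehmt2 (91.9 ± 5.38 against 73.3 ± 10.8, adjusted p = 0.0144). The Ehmt2 call was lost without Pdgfra+ replicate 2 (adjusted p = 0.0537), and that of Rybp against DP nEnd without DP replicate 1 or 3. Without 1 library at a time the higher genes numbered 2 to 3 and 1 to 2, and the lower 0 to 1 in both comparisons. The lower gene was Yaf2, a relative of Rybp, named after its values were seen and tested only without Oct4+ replicate 4 (limma, adjusted p = 0.000667 against Pdgfra+ and 0.00489 against DP nEnd). Yaf2 had a peak in 2 of 4 Oct4+ libraries, at 17.6 and 22.04, beside 55.0 to 64.3 in DP and 70.5 to 78.8 in Pdgfra+ nEnd. E2f6, the repressive E2F of this complex, had a peak in no Oct4+ library and in all DP and Pdgfra+ libraries, at percentiles from 5.91 to 38.7. Such a pattern was shown by 1.93% of all genes for DP over Oct4+ nEnd and 1.42% for Pdgfra+ over Oct4+ nEnd. The median highest coverage of a peak was 22 to 59 in the Oct4+ libraries and 67 to 144 in the DP and Pdgfra+ libraries, and its part in the missing E2f6 and Cdkn2b peaks was not tested.

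Of 8 genes for MYC protein turnover, all tested, Usp28 was higher and Gsk3b lower in Oct4+ nEnd against either population, beside the same shares of all genes (19.3% and 20.9% against Pdgfra+, 14.1% and 14.4% against DP nEnd). Usp28, a deubiquitinase that stabilises MYC, was at 59.7 ± 28.4 in Oct4+, 3.38 ± 1.36 in DP and 7.79 ± 7.10 in Pdgfra+ nEnd (limma, adjusted p = 0.00233 and 0.00351). Gsk3b, a kinase that marks MYC for degradation and the target of the CHIR99021 in RACL medium, was at 75.3 ± 3.53, 91.6 ± 2.16 and 90.9 ± 2.06 (adjusted p = 0.00690 and 0.00631). Of the relatives Mga, Mlxip and Mlxipl, only Mlxip had a peak in all 9 libraries. Mlxip, the MONDO partner of MLX, was lower in Oct4+ than in Pdgfra+ nEnd (5.38 ± 3.40 against 30.1 ± 14.02, adjusted p = 0.00403), and Mlxipl had no peak in any of the 10 libraries.

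**Figure D5:**
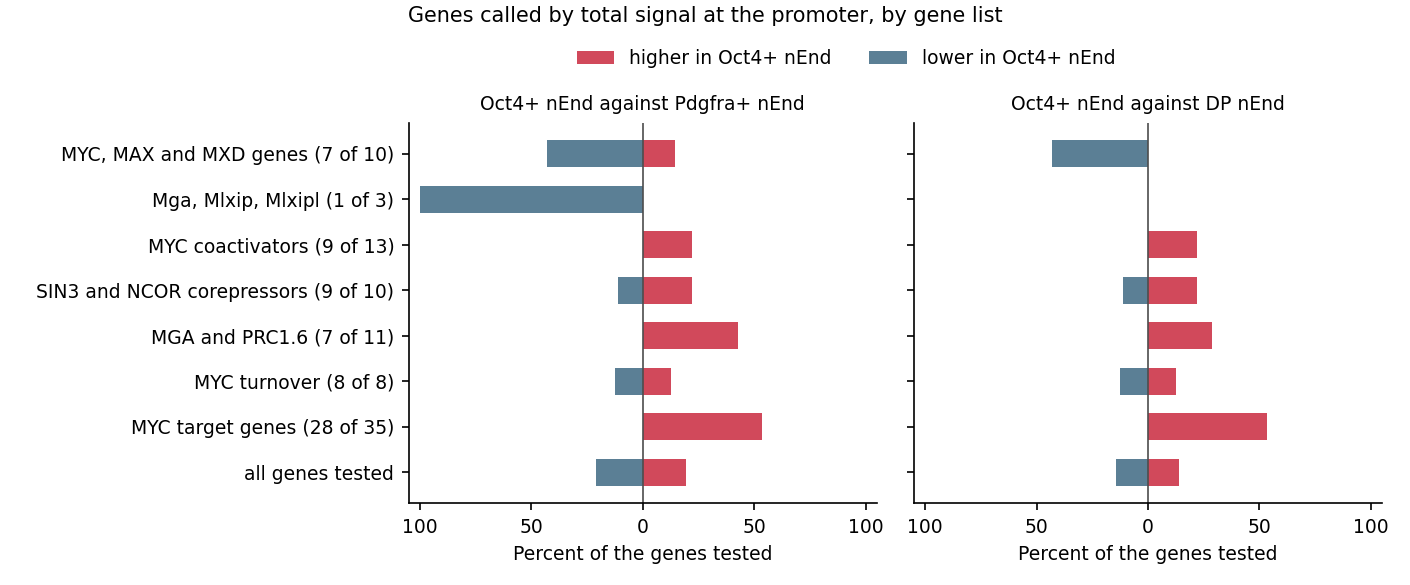
Percent of tested genes called higher (right of 0) or lower (left of 0) in Oct4+ nEnd by total signal at the promoter, against Pdgfra+ nEnd (left) and DP nEnd (right), for the members, 6 related gene lists and all 4771 genes tested; labels give tested and listed genes, and the Mga list has 1 tested gene. The MYC target bar reaches furthest to the right among lists with more than 1 tested gene (15 of 28 in both panels, with Hspd1 and Hspe1 on 1 shared peak), and the members' bars lie mostly to the left.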

How the data were processed

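H3K4me3 CUT&Tag of sorted nEnd was processed by the authors with bcl2fastq 2.19.1, Bowtie2, SAMtools 1.12 and bedtools 2.26.0 on mm10 (GRCm38). Tool names and versions are from the submitters' processing notes. The authors called peaks per library against IgG with SEACR (stringent); the deposited lists give each peak's summed coverage ("total signal") and highest coverage, a signal not scaled between libraries. The authors' DiffBind consensus lists pool replicates, and the deposited score beside each peak is a constant 1, so only positions were used.

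Here a promoter peak overlapped the window by at least 1 bp. Within-library ranks were compared with limma 3.58.1 (R 4.3.3) in 1 fit of 9 libraries, two-sided, Benjamini-Hochberg over all genes. Fits without a library were used for members that the main fit could not hold. The text names every member, up to 3 called genes per list and pair with the largest difference, genes without a peak in a population, and the 3 genes most correlated with each called member. Members and lists were chosen with earlier results of these data known. Promoter sequences are from RefSeq (GRCm38.p6); 9 of 10 members matched.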

Additional observations from a re-analysis of the deposited data

Results flagged for a closer look

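Of 16 sets of 4 Oct4+ nEnd values that were tested for a value far from the others (Dixon's test, which marks about 1 in 20 sets by chance), 3 held one. Mycn stood at percentile 92.1 by total signal in Oct4+ replicate 3, against 95.7 to 96.3 in the other Oct4+ libraries. Mnt stood at 89.2 by total signal in the same library, against 97.3 to 98.7. Max stood at 96.8 by highest coverage in Oct4+ replicate 2, against 78.7 to 79.3 in the others. Oct4+ replicate 3 is the library with the fewest peaks (3477), and its part in the Mycn and Mnt values was not tested; it was not in the main tests. The Max value entered them, and the difference in Max between populations did not pass with or without it.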

How the results depend on the processing

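Myc kept its call between Oct4+ and Pdgfra+ nEnd by total signal under every alternative. Mxi1 kept both of its calls wherever it could be tested, though with each promoter separate only its upstream promoter did. With 4 Oct4+ libraries or equal peak numbers Mxi1 did not have a peak in every library. With all 4 Oct4+ libraries 4 members in place of 7 could be tested, without Mxi1, Mycl and Mlx, and members called by total signal were 2 (Myc, Mycn) in place of 4 (Oct4+ against Pdgfra+) and 1 (Mycn) in place of 3 (Oct4+ against DP), by highest coverage from 1 to 0 (Oct4+ against DP) and by width from 1 to 0; the signs of Mnt (-0.979 against Pdgfra+, -1.81 against DP) and Max (-1.56 against DP) turned, none of them called. With the 3477 strongest peaks of each library the same counts were 1, 0, 0 and 0, the genes called 901, 637 and 3 in place of 1918, 1360 and 26, and the members with a peak 4.67, 7 and 6.33 in place of 9.33, 10 and 9.67 per Oct4+, DP and Pdgfra+ library. On log2 values 2 genes were called between DP and Pdgfra+ nEnd and 0 members by highest coverage between Oct4+ and DP nEnd. The next alternatives, by genes of a pair and by promoter, were chosen after the data had been seen. With genes marked in every library of the pair, 2 members (Mxi1, Myc) between Oct4+ and Pdgfra+ nEnd and, between DP and Pdgfra+ nEnd, 2 genes were called, and Mnt was at -0.146 against DP nEnd. With each promoter separate, members called by highest coverage were 2 and 2 and by width 0 between Oct4+ and Pdgfra+ nEnd, and Mxi1 width against DP nEnd was 0.520.

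The 7 same-numbered pairs of libraries had correlations of deviations from -0.131 to 0.218, of which 5 lay between 0.140 and 0.218 and both pairs of DP replicate 2 with its own number were negative (-0.131 and -0.0845), so not every pair deviated together and the numbers were not taken as a pairing. With a replicate block, genes called were 1520, 960 and 8, members called by total signal 4, 2 and 0 (Mycn lost, Mlx gained), by highest coverage 0 between Oct4+ and DP nEnd and by width 1 (Mxi1) between them.

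Without 1 library at a time, members called by total signal were 2 to 4, 1 to 3 and 0 to 1 for Oct4+ against Pdgfra+, Oct4+ against DP and DP against Pdgfra+ nEnd, and genes called 1635 to 2289, 847 to 1704 and 1 to 35. By highest coverage members called were 1 to 2 and 0 to 2, and by width 0 to 2 and 0 to 1, for the first 2 pairs. Directions turned, with no call, for Mycn (-0.477 to 1.23) and Mxi1 (-2.10 to 0.387) between DP and Pdgfra+ nEnd, Max against Pdgfra+ (-11.1 to 1.77) and DP (-3.37 to 7.11), Mlx against DP (-32.4 to 0.517) and between DP and Pdgfra+ (-23.1 to 13.2), and Mnt against DP (-0.507 to 0.835). Read depth is unknown, and its part in these results was not tested.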
